A study of Mus musculus with 4 samples.

Results

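CpG island promoter regions of the mouse heart were examined for propionylation of lysine 23 of histone H3 (H3K23). They were the merged peak regions that hold at least 1 annotated promoter and at least 1 annotated CpG island and have a deposited length (end minus start) under 30000. Counted with both ends, a member has at most 30000 bases. This rule uses annotation and length and no signal. It found 8142 of 29210 regions (27.9%), which is 71.1% of the 11455 promoter regions under that length. The data came from 4 ChIP-seq libraries, each from a pool of 3 hearts and an antibody to propionylated H3K23. All hearts were from male C57Bl/6J mice aged 12 weeks. The control sham library came from mice on a BCAA-control diet after sham surgery, where BCAA stands for branched-chain amino acids (leucine, valine and isoleucine). The control TAC library had the same diet and transverse aortic constriction (TAC), a narrowing of the aorta that loads the left ventricle with pressure. The BCAA-free sham and BCAA-free TAC libraries had the same surgeries on a BCAA-free diet. Feeding of either diet started 4 days ahead of the operation and went on until the hearts were collected 1 week after it. With 1 library per group there was no replicate error, and no test of surgery or diet was made, and pooling hides the spread between hearts. The words higher and lower therefore compare libraries. The comparisons address how pressure overload, and removal of BCAA, of which isoleucine and valine yield propionyl-CoA, go with the mark at this class of promoters.

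CpG islands are stretches of DNA rich in the CG dinucleotide that escape most DNA methylation. They cover the start of most housekeeping genes and of many regulators of development, and proteins with a CXXC zinc finger bind their unmethylated CG. Propionylation is an acylation of lysine that uses propionyl-CoA, a product of isoleucine and valine breakdown and of odd-chain fatty acids, and the KAT6 acetyltransferases with their scaffold BRPF1 are known to place it on H3K23. In the heart, islands lie at the starts of genes of energy metabolism and of the cell cycle, whereas many contractile genes start outside islands.

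The sequences that follow show what such a promoter looks like at the extremes of the data. Tnfaip8l2, a regulator of immune signalling, and Hcst, an adaptor of immune receptors, had the highest TAC to sham ratios in control diet hearts among members whose mean signal was above the member median. Wnk2, a kinase that controls ion transport, and Rbm24, a splicing factor of heart and skeletal muscle, are shown for the low end. Sde2, a protein of splicing and genome maintenance, had the highest mean signal of the members. Pcca encodes a subunit of propionyl-CoA carboxylase, which consumes propionyl-CoA. Hrct1 is shown as the promoter of highest signal that had no annotated island. Each run is the 250 bases before the gene's start, read 5′ to 3′ on the gene's strand from RefSeq GRCm38.p6 (mm10), with every CG in capitals. The windows are chr3:95142355-95142604 for Tnfaip8l2, chr7:30419855-30420104 for Hcst and chr13:49148329-49148578 for Wnk2, all on the minus strand. On the plus strand they are chr13:46418050-46418299 for Rbm24, chr1:180850901-180851150 for Sde2, chr14:122534078-122534327 for Pcca and chr4:43726948-43727197 for Hrct1.
Tnfaip8l2: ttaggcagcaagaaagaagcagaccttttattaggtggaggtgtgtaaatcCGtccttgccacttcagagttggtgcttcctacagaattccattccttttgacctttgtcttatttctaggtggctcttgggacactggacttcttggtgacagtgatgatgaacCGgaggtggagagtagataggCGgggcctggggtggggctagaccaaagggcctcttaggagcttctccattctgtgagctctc
Hcst: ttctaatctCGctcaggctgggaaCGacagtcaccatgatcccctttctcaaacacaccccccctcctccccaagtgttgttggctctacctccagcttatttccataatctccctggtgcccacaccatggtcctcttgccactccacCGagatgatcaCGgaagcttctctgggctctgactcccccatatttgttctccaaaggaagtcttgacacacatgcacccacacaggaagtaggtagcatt
Wnk2: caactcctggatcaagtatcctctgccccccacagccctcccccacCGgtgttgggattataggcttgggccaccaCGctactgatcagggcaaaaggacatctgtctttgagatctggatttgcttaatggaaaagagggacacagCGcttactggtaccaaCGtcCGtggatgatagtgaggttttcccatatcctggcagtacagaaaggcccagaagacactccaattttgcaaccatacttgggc
Rbm24: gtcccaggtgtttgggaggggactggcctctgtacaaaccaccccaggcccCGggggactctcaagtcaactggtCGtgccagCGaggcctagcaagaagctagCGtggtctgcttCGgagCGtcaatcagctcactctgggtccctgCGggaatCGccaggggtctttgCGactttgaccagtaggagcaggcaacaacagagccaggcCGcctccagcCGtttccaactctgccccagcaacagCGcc
Sde2: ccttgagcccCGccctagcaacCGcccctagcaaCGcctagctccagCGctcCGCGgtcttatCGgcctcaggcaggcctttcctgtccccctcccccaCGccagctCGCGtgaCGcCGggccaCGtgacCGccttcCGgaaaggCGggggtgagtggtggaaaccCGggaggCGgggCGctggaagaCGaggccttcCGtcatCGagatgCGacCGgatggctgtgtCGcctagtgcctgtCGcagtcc
Pcca: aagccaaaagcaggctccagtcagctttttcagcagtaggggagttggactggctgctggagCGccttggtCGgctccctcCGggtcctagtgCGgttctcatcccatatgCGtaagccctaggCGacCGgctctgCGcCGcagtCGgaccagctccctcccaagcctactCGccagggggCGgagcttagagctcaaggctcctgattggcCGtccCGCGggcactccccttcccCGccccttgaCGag
Hrct1: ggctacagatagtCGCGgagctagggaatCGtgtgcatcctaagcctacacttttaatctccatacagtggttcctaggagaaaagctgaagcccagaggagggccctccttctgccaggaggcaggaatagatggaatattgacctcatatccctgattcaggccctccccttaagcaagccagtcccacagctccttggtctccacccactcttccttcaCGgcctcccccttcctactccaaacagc
The windows held 3 CG in Tnfaip8l2, 4 in Hcst, 5 in Wnk2, 12 in Rbm24, 26 in Sde2 and 17 in Pcca, against 4 in Hrct1. An island of a region need not lie in these 250 bases, and in the first 3 genes the window itself was poor in CG.

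A further 3 promoters are shown because they belong to a group with its highest signal in the control TAC library. Kif22 encodes a chromosome-binding motor protein, Ccnb2 the mitotic cyclin B2, and Ccnf cyclin F. Capitals mark the CCAAT box, bound by the factor NF-Y, and the core of the cell cycle genes homology region (TTTGAA), on either strand (ATTGG and TTCAAA). Matches of CCAAT and of TTTGAA can share at most 1 base, and the CCAAT box and its reverse complement at most 2. The windows, all on the minus strand, are chr7:127042421-127042670, chr9:70421555-70421804 and chr17:24251410-24251659.
Kif22: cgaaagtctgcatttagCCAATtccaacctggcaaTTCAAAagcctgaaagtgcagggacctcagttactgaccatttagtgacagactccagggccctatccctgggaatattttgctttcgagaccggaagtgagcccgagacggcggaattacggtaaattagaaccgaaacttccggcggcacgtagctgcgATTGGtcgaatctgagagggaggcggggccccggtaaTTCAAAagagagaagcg
Ccnb2: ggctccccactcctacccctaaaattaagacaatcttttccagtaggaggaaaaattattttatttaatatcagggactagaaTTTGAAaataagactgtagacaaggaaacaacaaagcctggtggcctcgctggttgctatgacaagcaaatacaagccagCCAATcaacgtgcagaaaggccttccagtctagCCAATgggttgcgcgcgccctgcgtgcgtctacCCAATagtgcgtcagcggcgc
Ccnf: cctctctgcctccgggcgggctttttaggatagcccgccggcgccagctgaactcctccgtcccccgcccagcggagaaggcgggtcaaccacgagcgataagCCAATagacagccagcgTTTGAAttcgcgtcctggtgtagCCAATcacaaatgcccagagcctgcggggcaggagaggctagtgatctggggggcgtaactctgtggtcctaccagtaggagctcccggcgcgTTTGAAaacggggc
The Kif22 window held 2 CCAAT boxes and 2 TTTGAA cores, the Ccnb2 window 3 and 1, and the Ccnf window 2 and 2. In windows of 300 bases (250 before and 50 after the start), CCAAT was present in 36.9% of the 6639 member regions with a RefSeq promoter and in 37.4% of all 32851 RefSeq promoters. The TTTGAA core was present in 11.2% and 17.9%. Of 72 member promoters of mitosis genes, 70.8% held CCAAT and 63.9% the core. The 3 windows shown hold both and need not be typical of that group. A match describes letters and is not a bound site.

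Members were 800 to 30000 bases long, with a median of 7200, and together covered 75.8 megabases. Of the 8142, 7220 held 1 island and 5604 held 1 promoter. A single gene was listed at 3545 members and at least 2 at 4597, so a value is that of a region and cannot be assigned to a single gene. A start lay inside 7980 members. At the length limit, the 10 longest members (29800 to 30000 bases) had a median signal of 10.8 in control sham, and the 10 shortest island promoters outside (30200 to 30400 bases) had 9.43. For 6639 members RefSeq had a promoter sequence, with a median of 23 CG per 300 bases, a GC content of 62.3% and a CpG observed-to-expected ratio of 0.80. For 1676 of the 3313 promoter regions of the same length range without an island these were 7 CG, 52.0% and 0.35. The GC box GGGCGG, bound by Sp1 family factors, was present in 69.8% of member promoters and 31.6% of the others, and the TATA box TATAAA in 5.96% and 13.1%.

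The 4 libraries were close in depth, with 11291348 to 11886699 estimated tags over all regions, of which the members held 27.5% to 28.5%. No input library was used here, and how the libraries were scaled is not given, so a change of equal size at all members cannot be told apart from scaling. Of 26 sarcomere genes, 25 were listed at 51 regions, with a summed average signal of 366 to 478 over the libraries. No region was at 0, but merged regions come from peak calls. Leukocyte (37 of 40) and endothelial (25 of 25) genes were listed as fully, so a listing does not tell heart muscle from other cells of the heart. Of 18 genes of other tissues, 7 were listed.

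CpG island promoters carried more signal than promoters without an island in every library. The average signal is the mean density of fragments over a region. Its median over members was 8.62 in control sham, 8.98 in control TAC, 8.96 in BCAA-free sham and 8.81 in BCAA-free TAC, against 6.60, 7.09, 6.96 and 6.90 at promoters without an island. The difference was 1.96 ± 0.0644 (SD, n = 4 libraries). An exact sign-flip permutation test, two-sided, gave p = 0.13, the smallest that 4 libraries allow. In regions of 3000 to 6000 bases (2727 members and 1098 others) the difference was 2.23 ± 0.0422 (SD, n = 4). Islands away from promoters (642 regions) had medians of 7.31 to 7.57, between both promoter classes. The order of the classes was the same in all 4 libraries.

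**Figure D1:**
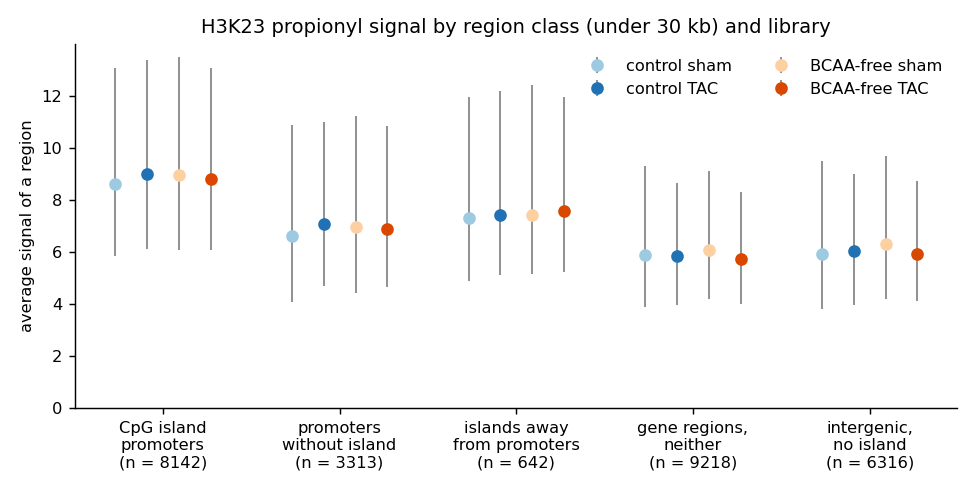
Average signal (vertical axis, density of fragments per region) of 5 region classes under 30 kb in the 4 libraries; points are medians and bars run from the 10th to the 90th percentile of regions. CpG island promoters have the highest median in each library, 8.62 to 8.98.

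Peak calls showed the same order. Of the members, 93.6% to 95.2% had a call in a library and 89.0% had one in all 4, whereas 74.5% to 81.9% of promoters without an island had a call in a library. The median peak height of a member was 44 to 47, against 24 to 26. Signal was higher at members with more promoters: with 1, 2 and 3 or more promoters the median in control sham was 8.34, 9.21 and 10.1. It also differed with length, from 6.94 at members of up to 2000 bases to 9.82 at those of 20000 to 30000. Length was not held equal in these bins or in those that follow. Members with divergent RefSeq starts within 1000 bases (955) had 9.31, and those with 1 RefSeq start (4800) had 8.53. The number of CG in the promoter did not order the signal in the same way. From the bin of fewest CG (0 to 16) to that of most (30 to 65), medians in control sham were 8.66, 8.85, 8.83 and 8.62. Members on the X chromosome (245) had 7.21, 8.09, 8.07 and 7.94 in control sham, control TAC, BCAA-free sham and BCAA-free TAC, below the 8.65, 9.01, 8.99 and 8.83 of the 7897 on autosomes. This order of libraries is kept for all values below. Promoters without an island had 5.70 on the X chromosome and 6.67 on autosomes in control sham. All hearts were from males, and the copy number of the X chromosome was not taken into account.

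The members of highest mean signal were Sde2 (31.0, 33.2, 33.3 and 31.4), Tmem140, the hypoxia-inducible factor gene Hif3a, the RNA polymerase III subunit gene Polr3d and the mitochondrial RNA helicase gene Supv3l1. Hif3a had 32.4, 28.0, 33.5 and 28.0, lower in both TAC libraries. The lowest 5 were the homeobox genes Emx2 and Dlx5, the transcription factor gene Rfx4, Ccdc160 and the membrane glycoprotein gene Emb, with signals of 2.70 to 4.61. Emx2 had 4.60, 3.84, 2.77 and 2.73. Whole gene lists differed in level in the same manner. Medians were 16.3 to 17.0 over 14 members of immediate early genes, which are poised for rapid induction, and 5.87 to 6.13 over 35 members of developmental regulators, which Polycomb proteins often hold silent. Cytosolic ribosomal protein genes (42 members) had 10.6 to 11.3.

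On the control diet, some CpG island promoter regions that list leukocyte or cell division genes had a higher signal in TAC than in sham. Some that list fatty acid oxidation or cardiomyocyte genes had a lower one. A member was counted when log2((A + 1)/(B + 1)) of the average signals passed 1.5-fold, or 0.585, which is a rule of size and no test. By this rule 94 members (1.15%) were higher, against 4.36% of all regions, and 52 (0.639%) were lower, against 5.31% of all regions. With so few members past the limit here and in the other comparisons, a count of 0 in a gene list below is near the share of all members. The median log2 ratio was 0.05 over members and 0.04 over all regions. Of the 94, 89 had a peak call in control TAC and 51 in control sham. In 91 of them the 95% counting interval did not include 0. The 94 were picked by the same ratio, so this count follows largely from the rule and is no separate support.

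In each comparison the genes named first are the extremes among members whose mean signal was above the member median; weaker members could exceed them. Tnfaip8l2 had the highest ratio here (chromosome 3, 95139400 to 95143999, a region that also lists Scnm1 and Lysmd1). Its signal was 8.49 in control sham, 19.6 in control TAC, 9.76 in BCAA-free sham and 15.7 in BCAA-free TAC. Both TAC libraries lay above both sham libraries. The log2 ratio on the control diet was 1.12 (95% counting interval 0.86 to 1.37), from 174 and 402 estimated tags. The region of Hcst also lists Tyrobp, another adaptor of immune receptors, with Nfkbid and Aplp1, and had 7.94, 15.6, 7.88 and 11.5. Its ratio was 0.89 (0.74 to 1.05). Fam111a, a chromatin-bound protease gene, had 6.86, 12.6, 6.82 and 9.64, and a ratio of 0.79. Iqgap2, which encodes a scaffold of the actin skeleton, had 6.74, 12.0, 5.92 and 10.7 and a ratio of 0.75. Ckap2l, a gene of the mitotic spindle, had 8.56, 15.1, 10.4 and 10.6, with a ratio of 0.75. In Ckap2l the control TAC library stood alone, while in the other 4 both TAC libraries were higher than both sham libraries.

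At the low end stood Fhod3, a formin that assembles actin in the sarcomere, with 14.3, 6.28, 8.85 and 7.48. Its ratio was −1.08 (−1.28 to −0.88), from 653 and 286 estimated tags, and its highest value was that of control sham. Wnk2 (chromosome 13, 49138800 to 49149599) had 16.1, 8.23, 12.1 and 9.14 and a ratio of −0.89. Rbm24 (chromosome 13, 46411600 to 46430799) had 12.5, 6.28, 10.3 and 7.27, also with −0.89. Both TAC libraries lay below both sham libraries in all of these. Rcan2, a regulator of the phosphatase calcineurin, had 12.4, 6.53, 10.6 and 8.41 (ratio −0.83). Fitm2, a gene of lipid droplet formation, had 13.7, 7.43, 11.9 and 8.21 (ratio −0.81). The lower members were longer than the higher ones, with a median of 10900 against 4700 bases.

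The island of a region need not lie at the gene that is listed. Leukocyte genes had 12 of 40 list members at CpG island promoter regions, in 10 regions. Their median signal was 9.10, 12.2, 8.78 and 11.2, and the median ratio was 0.38, with 3 regions higher and 0 lower past 1.5-fold. The complement region of C1qa, C1qb and C1qc had 15.9, 26.5, 15.7 and 23.2 and a ratio of 0.70. Ikzf1, a transcription factor gene of lymphoid cells, had 4.82, 7.91, 4.17 and 6.29 and a ratio of 0.61. The macrophage transcription factor gene Irf8 had 8.83, 11.7, 8.95 and 10.8, a ratio of 0.37. All 3 were higher in both TAC libraries. Over the whole list, 37 of 40 genes were listed at 76 regions of any class, with a summed signal of 520, 703, 509 and 618 and no region at 0. More cells of a type and more signal per cell cannot be told apart in whole hearts, and the part of leukocytes in the members' ratios was not tested.

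Fatty acid oxidation genes were the list with the lowest median, −0.29 over 18 regions, of which 3 were lower and 0 higher past 1.5-fold. The median signal was 13.4, 9.99, 13.3 and 10.8. Fabp3, the fatty acid binding protein of heart muscle, had 16.2, 8.87, 13.0 and 9.50 (ratio −0.80). Ppara, the nuclear receptor that switches on fatty acid use, had 17.0, 9.80, 13.8 and 11.0 (−0.74), and Decr1, the dienoyl-CoA reductase of unsaturated fatty acids, 13.1, 8.32, 13.6 and 8.64 (−0.60). The shared region of Hadha and Hadhb, the trifunctional protein of beta-oxidation, had 13.7, 8.83, 12.6 and 8.85 (−0.58), just inside the limit. The lowest value of the 4 libraries was that of control TAC in 12 of the 18 regions, against 20.9% of all members. Oxidative phosphorylation (38 regions, median −0.15) and the tricarboxylic acid cycle (20 regions, −0.12) had 0 regions past 1.5-fold. Of their ratios 30 and 18 were below 0, where 38.9% of all members were.

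Contractile genes were few among the members: 4 of 26 sarcomere genes were at a member, and 11 had their nearest region at a promoter without an island. The potassium channel gene Kcnh2 had 11.1, 7.19, 8.10 and 7.86 (−0.56). The region of Irx4, a transcription factor gene of the ventricles, had 9.11, 5.74, 7.07 and 5.49 (−0.59). Endothelial genes (7 regions) had a median of −0.26, with 0 past 1.5-fold. The control sham value was the highest in 6 of these 7, against 18.6% of all members. Over all 51 regions of the endothelial list the summed signal was 495, 454, 452 and 441, and its part in the ratios was not tested.

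**Figure D2:**
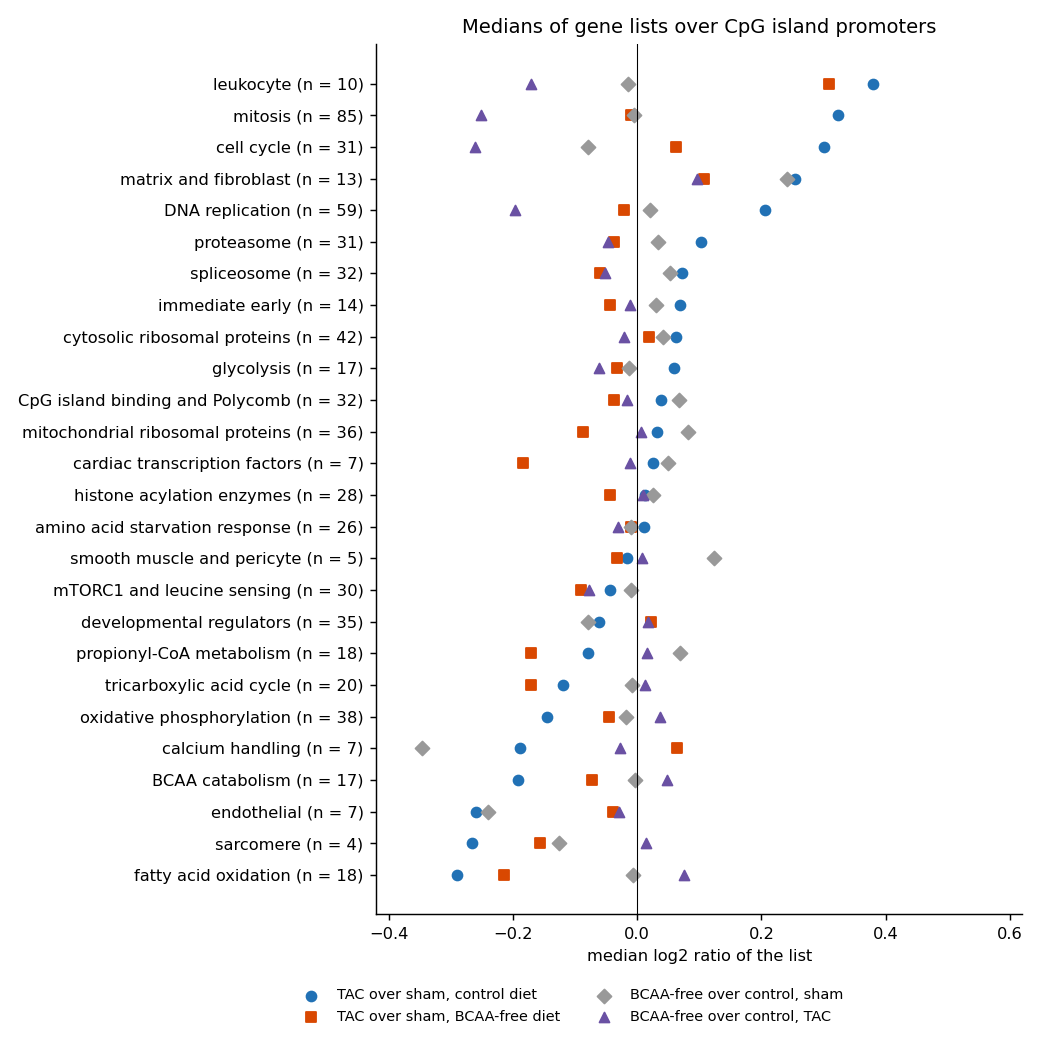
Median log2 ratio (horizontal axis) of gene lists over their CpG island promoters in the 4 comparisons, for lists with at least 4 member regions (n = regions). Leukocyte, mitosis and cell cycle lists lie highest for TAC on the control diet (0.38, 0.32 and 0.30) and fatty acid oxidation lowest (−0.29); the mitosis and DNA replication lists were chosen after values were seen.

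Genes of BCAA and propionyl-CoA metabolism had no region past 1.5-fold. Of all members 1.15% were higher and 0.639% lower, so 0 in lists of 17 to 28 regions is near that share. BCAA catabolism (17 regions) had a median of −0.19 with 10 ratios below 0, and propionyl-CoA metabolism (18 regions) had −0.08 with 14 below 0, where 38.9% of all members were below 0. Bcat2, the mitochondrial transaminase, had 13.7, 10.9, 13.5 and 13.0 (−0.30), and Bckdha, which encodes part of the branched-chain ketoacid dehydrogenase complex, had 15.7, 13.1, 16.9 and 14.5 (−0.24). Pcca had 6.63, 6.31, 6.64 and 5.47, and Pccb, the other carboxylase subunit, 12.4, 11.9, 13.3 and 11.9. Both ratios were −0.06, with counting intervals of −0.38 to 0.25 and −0.28 to 0.17. Acss2, which makes acetyl-CoA in the nucleus and cytosol, had 7.08, 7.65, 9.27 and 8.30 (0.10, −0.14 to 0.34). Among 28 regions of histone acylation enzymes, 0 were past 1.5-fold, and Kat6b, an acetyltransferase of H3K23, had 8.11, 7.69, 8.67 and 8.84 (−0.07). Gapdh, a glycolytic enzyme gene in a region with Nop2, Iffo1 and Ncapd2, had 15.2, 17.2, 15.1 and 14.8 (0.17). Kat6a, Gata4, Nkx2-5 and Actb lay in island promoter regions over the length limit, and the regions that list Bckdhb hold no promoter.

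Promoters without an island were past 1.5-fold more often, with 305 of 3313 (9.21%) higher and 147 (4.44%) lower. Members had more tags, so both classes were set side by side at equal tag numbers. Between 200 and 400 estimated tags, 0.666% of 2854 members and 7.72% of 777 other promoters were higher, and 0.315% and 3.99% were lower. The counting error of a ratio was nearly equal there, 0.123 and 0.124 at the median, while the interquartile range of the ratio was 0.220 and 0.398. Over all members the interquartile range was 0.250. The number of members past the limit depended on the measure: peak height put 493 higher (6.06%) and 197 lower (2.42%), against 10.3% and 10.4% of all regions by that measure. A pseudocount of 0.1 put 150 (1.84%) and 85 (1.04%), against 6.65% and 7.43%.

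**Figure D3:**
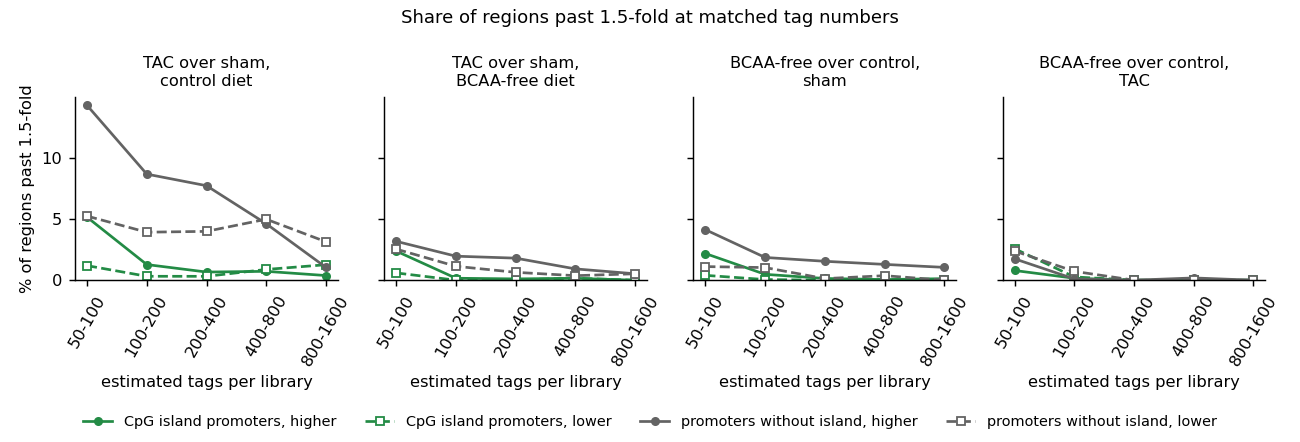
Share of regions past 1.5-fold (vertical axis, %) by the estimated tags per library (horizontal axis) for CpG island promoters and promoters without an island, in 4 panels for the 4 comparisons; filled points are higher and open points lower. For TAC on the control diet at 200 to 400 tags, 0.666% of island promoters and 7.72% of the others are higher.

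Cell division genes were also found among the 94 higher members. The cell cycle list of 37 genes had 31 member regions, with a median signal of 7.19, 8.84, 6.65 and 6.95. Its median ratio was 0.30, and 4 regions were higher past 1.5-fold. These were Bub1, a kinase of the spindle checkpoint, the cyclins Ccna2 and Ccnb1, and Tpx2, which nucleates spindle microtubules. After these values were seen, a wider list of 105 mitosis genes was drawn up, which overlaps the first list and gets no test. Its 85 member regions had a median signal of 6.97, 9.15, 7.14 and 7.0 and a median ratio of 0.32. Of these, 15 were higher and 0 lower past 1.5-fold, and 78 had a ratio above 0, where 61.0% of all members did. A list of 69 DNA replication genes, also drawn up after values were seen, had 59 regions, a median of 0.21 and 3 regions higher.

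The control TAC library gave the highest of the 4 values in 68 of the 85 mitosis regions (80.0%), against 33.0% of all members. Ccna2 had 5.46, 10.1, 6.65 and 5.54, and Tpx2 had 4.13, 7.67, 5.41 and 3.72. Diap3, a formin that acts in cell division, had 6.16, 10.4, 5.85 and 4.88. Knstrn, a spindle protein gene, had 4.32, 7.78, 3.69 and 3.90, and Cenpf, a kinetochore protein gene, had 5.09, 8.47, 3.96 and 4.26. In each of these 5 the control TAC library stood alone above 3 lower libraries. Tpx2, Diap3, Knstrn and Cenpf had a peak call in control TAC alone, and Ccna2 in 2 libraries. A region enters the data through a peak call, so such regions were admitted by the library in which they are high. The count of 68 is therefore no separate support. Not all members behaved alike: Ttk, another checkpoint kinase gene, had 7.26, 12.5, 8.95 and 11.5. Mki67, which marks dividing cells, had 4.43, 7.12, 4.44 and 5.63 (ratio 0.58, just inside the limit). Summed over all 167 regions that list a mitosis gene, the signal was 1329, 1552, 1412 and 1379.

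**Figure D4:**
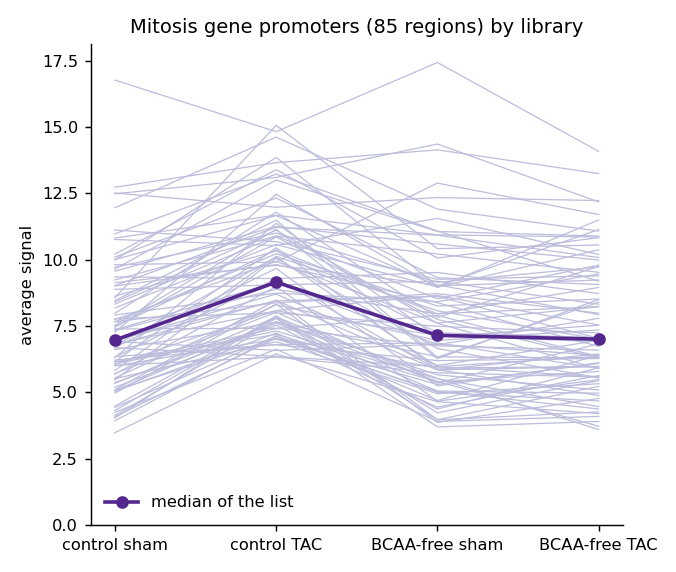
Average signal (vertical axis) of 85 CpG island promoter regions of mitosis genes in the 4 libraries; each thin line joins the values of 1 region and the thick line is the median. The median is 9.15 in control TAC and 6.97 to 7.14 in the other libraries.

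On the BCAA-free diet, fewer members differed between TAC and sham. The median of the leukocyte list was 0.31 and that of fatty acid oxidation −0.21, with 0 of 10 and 1 of 18 regions past 1.5-fold, and that of the cell cycle list was 0.06. Past 1.5-fold, 27 members (0.332%) were higher, against 1.41% of all regions, and 10 (0.123%) were lower, against 2.37%. The median was −0.02 over members and −0.06 over all regions. The split between higher and lower depended on scaling: after scaling of all libraries to 1 median it was 41 higher and 4 lower. Among promoters without an island, 74 were higher (2.23%) and 61 lower (1.84%).

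Ngef, a guanine nucleotide exchange factor gene, had the highest ratio among members of above-median signal, 0.98 (0.45 to 1.51), with signals of 6.42, 10.6, 6.74 and 14.3. It lay in a region of 1400 bases with 42.1 and 89.2 estimated tags in the BCAA-free libraries and a peak call in 1 library. Iqgap2 was next under the same limit with 0.76 (0.50 to 1.02). Hhex, a homeobox gene of blood and endothelial development, had 10.8, 16.2, 7.56 and 13.5 (ratio 0.76). Rnf180, a ubiquitin ligase gene, had 7.29, 12.8, 6.01 and 10.1 (0.66). Tnfaip8l2 had 0.63 (0.38 to 0.88). In all 5 both TAC libraries were above both sham libraries. The highest leukocyte regions were the C1q region at 0.54, the actin-bundling protein gene Lcp1 at 0.51, and the Hcst and Ikzf1 regions at 0.50 each. Cthrc1, a secreted matrix protein gene, was the 1 matrix and fibroblast member past the limit, with 5.69, 7.44, 5.40 and 9.27 (0.68).

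Under that limit the lowest ratio belonged to Vwa8, which encodes a mitochondrial ATPase, with 15.5, 10.5, 14.7 and 8.60 (−0.71). Decr1 had −0.60 (−0.77 to −0.43), the same value as on the control diet. Ppp1r12b, a subunit of myosin phosphatase, had 11.2, 7.65, 11.5 and 7.38 (−0.58). The pseudogene Trmt112-ps2, in a region with Rbp7 and Nmnat1, had 12.6, 8.04, 11.1 and 7.11 (−0.57), and Rab11b, a GTPase gene of recycling endosomes, had 19.9, 16.2, 21.6 and 14.3 (−0.56). Both TAC libraries were below both sham libraries in these 5. Decr1 was the 1 fatty acid oxidation region past 1.5-fold, and Hadha and Hadhb had −0.46. The tricarboxylic acid cycle list had −0.17 and propionyl-CoA metabolism (18 regions) −0.17, with 0 regions past 1.5-fold in either. Pcca had −0.24 (−0.57 to 0.09) and Pccb −0.14 (−0.36 to 0.08).

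The TAC ratios on the control and BCAA-free diets come from separate libraries and had a Pearson correlation of 0.40 and a Spearman correlation of 0.36 over 8142 members. The regions are not independent, and their counting error differs with the number of tags. Of the 94 members higher on the control diet, 11 were also higher on the BCAA-free diet, which is 11.7% of the 94 and 40.7% of the 27. Of the 52 lower members, 2 were shared (3.85% of the 52 and 20.0% of the 10). No member was past 1.5-fold in opposite directions. Of all members 0.332% were higher and 0.123% lower on the BCAA-free diet, so a count of 0 is near these shares. On the BCAA-free diet the median of the 94 was 0.28, with 79 above 0, and that of the 52 was −0.31, with 49 below 0. Of all members 44.1% were above 0 and 55.9% below 0 on that diet. For the mitosis list the medians were 0.32 and −0.01, for the leukocyte list 0.38 and 0.31, and for fatty acid oxidation −0.29 and −0.21. These differences between diets were not tested.

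**Figure D5:**
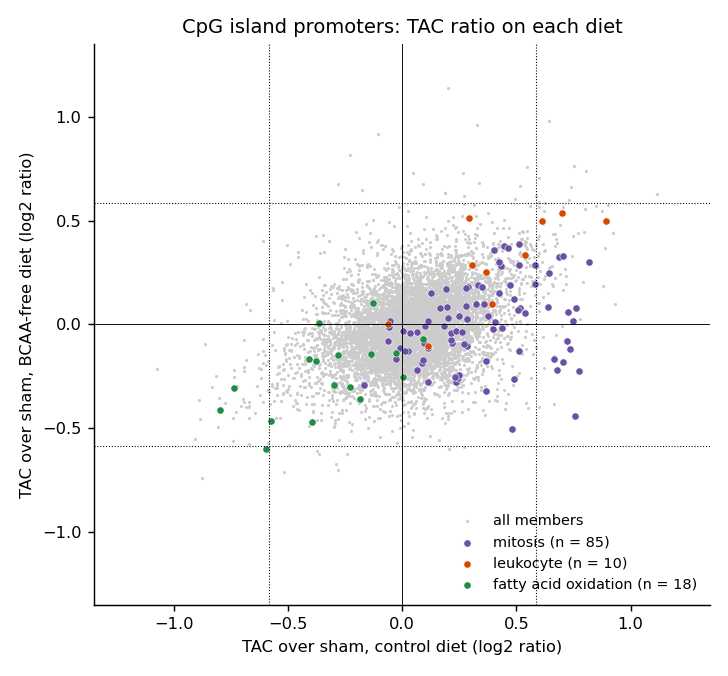
Log2 ratio of TAC over sham at each of 8142 CpG island promoters on the control diet (horizontal axis) and the BCAA-free diet (vertical axis), with 3 gene lists in color and dotted lines at 1.5-fold. Leukocyte regions lie up and right (medians 0.38 and 0.31), fatty acid oxidation regions down and left (−0.29 and −0.21), and mitosis regions mostly to the right with a vertical median of −0.01.

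In sham-operated hearts, few members differed between diets. Matrix and fibroblast genes had 11 of 13 ratios of BCAA-free over control above 0, where 60.1% of all members were above 0. All 7 endothelial and all 7 calcium handling regions were below 0, where 39.8% of all members were, and 0 of these 14 were past 1.5-fold. Past 1.5-fold, 32 members (0.393%) were higher, against 2.71% of all regions, and 10 (0.123%) were lower, against 1.37%. The median was 0.04 over members and over all regions. After scaling of all libraries to 1 median the split was 18 higher and 17 lower. Among promoters without an island 102 were higher (3.08%) and 27 lower (0.815%).

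Dhx35, an RNA helicase gene in a region with the spindle gene Fam83d, had 6.92, 10.8, 11.7 and 11.0 (ratio 0.68, 0.34 to 1.02). Its control sham value stood alone below the others. Dynlt1f had 8.76, 12.0, 14.5 and 11.8 (0.67), and is a member of a family of near-identical dynein light chain genes, so its reads are uncertain. Ppl, the gene of the junction protein periplakin, had 11.2, 11.3, 17.9 and 14.4 (0.63, 0.49 to 0.77). AA414768 had 7.09, 8.51, 11.4 and 9.68 (0.62). Tcf21, a transcription factor gene of the epicardium and of fibroblasts, had 8.41, 11.0, 13.4 and 12.2 (0.62, 0.47 to 0.77). In Ppl both BCAA-free libraries were above both control libraries, and so they were in Tcf21.

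The matrix and fibroblast list (13 regions) had a median signal of 8.87, 11.0, 12.2 and 11.9, and a median ratio of 0.24, with Tcf21 the 1 region past 1.5-fold. Pdgfra, a growth factor receptor gene of fibroblasts, had 8.87, 8.97, 12.2 and 10.7 (0.42). Lox, which cross-links collagen, had 9.94, 12.9, 12.9 and 14.9 (0.35), and the matrix protease gene Mmp2 had 6.28, 6.95, 8.14 and 9.28 (0.33). Control sham was the lowest library in 11 of the 13 regions, against 35.2% of all members. The list held 41 of 43 genes at 79 regions of any class, whose summed signal was 557, 639, 668 and 659. Its part in the ratios was not tested.

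On the low side stood Fhod3 again at −0.64 (−0.82 to −0.46), a ratio that shares the high control sham value with the one above. Ctnnbip1, an inhibitor of beta-catenin, had 13.6, 11.4, 9.03 and 8.79 (−0.54), and Sec1, a fucosyltransferase gene, had 23.8, 17.3, 16.2 and 15.8 (−0.53). Tbxa2r, the thromboxane receptor gene, had 17.5, 13.7, 12.3 and 14.2 (−0.48), and Actr3b, an actin nucleation gene, had 14.3, 10.4, 10.02 and 11.1 (−0.47). In each, control sham was the highest library. Calcium handling genes (7 regions) had a median of −0.35, with 0 past 1.5-fold, among them the calcium channel subunit gene Cacnb2 at −0.50 and Kcnh2 at −0.41. Endothelial genes (7 regions) had −0.24, with the transcription factor gene Sox17 at 14.2, 10.5, 10.5 and 10.2 (−0.39). BCAA catabolism genes had a median of 0.00, Pcca 0.00 (−0.31 to 0.31), Pccb 0.08 (−0.13 to 0.30) and Acss2 0.35 (0.11 to 0.58). The amino acid starvation response (26 regions) had −0.01 with 0 past 1.5-fold.

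In TAC-operated hearts, cell division genes had a lower signal when the diet was free of BCAA. Past 1.5-fold, 15 members (0.184%) were higher, against 0.948% of all regions, and 22 (0.270%) were lower, against 0.962%. The median was −0.03 over members and −0.02 over all regions. After scaling of all libraries to 1 median the split was 24 higher and 18 lower. Of the 22 lower members, 22 had a peak call in control TAC and 3 in BCAA-free TAC. They were short, with a median of 2600 bases. Among promoters without an island, 19 (0.573%) were higher and 31 (0.936%) lower.

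Of the 22 lower members, 12 listed a gene of the mitosis list: Ccna2, Ccnb2, Ccnf, Cenpf, Diap3, Fam64a, Kif22, Knstrn, Mybl2, Nek2, Spc25 and Tpx2. The list had a median of −0.25, and 82 of its 85 ratios were below 0, against 57.6% of all members. It was drawn up after values were seen, and its regions could enter through a peak call in control TAC. The counts of 12 and 82 are therefore no separate support. Diap3 had the lowest ratio of the 12, −0.96, followed by Mybl2, a transcription factor gene of dividing cells, at −0.94. Tpx2 had −0.88 and Cenpf −0.85. Kif22 had 7.45, 10.9, 7.74 and 6.29 (−0.70), Ccnb2 5.68, 8.99, 4.66 and 5.48 (−0.62), and Ccnf 6.76, 10.1, 5.97 and 6.36 (−0.59). In these 3, control TAC again stood above the other libraries. This comparison shares the control TAC library with the TAC comparison of control diet hearts, so both ratios of a gene rest on the same value. The cell cycle list had −0.26 with 4 of 31 regions lower, and DNA replication −0.20 with 3 of 59 lower, among them Rrm2, a subunit of ribonucleotide reductase (6.38, 9.51, 5.89 and 5.37). With peak call in all 4 libraries required, 2 of the 22 lower members were left.

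Of the 22, 15 had a RefSeq promoter, of which 12 (80.0%) held a CCAAT box and 6 (40.0%) a TTTGAA core. In the mitosis list, 51 of 72 promoters (70.8%) held CCAAT and 46 (63.9%) the core, and 18 of 24 (75%) and 9 (37.5%) did in the cell cycle list. For the 77 promoters of members higher in TAC on the control diet these were 42.9% and 14.3%, and for all members 36.9% and 11.2%. The median number of CG per 300 bases was 21 in the 15 promoters and 23 in all members.

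By the rule for named genes, which requires a signal above the member median, the lowest were Dscc1, a gene of sister chromatid cohesion (9.10, 13.5, 7.90 and 8.70, ratio −0.58), Prps2, Arf3, Cyb5r1 and Elmo2. Prps2, a gene of nucleotide precursor synthesis, had 9.04, 14.0, 7.95 and 9.38 (−0.53). Elmo2, an adaptor of Rac signalling, had 14.5, 21.2, 12.6 and 14.8 (−0.50, −0.59 to −0.40), with the highest value in control TAC. Cyb5r1, a reductase gene, had 14.3, 15.6, 10.3 and 10.7 (−0.51), lower in both BCAA-free libraries. The small GTPase gene Arf3 had 8.74, 11.0, 9.27 and 7.45 (−0.51).

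The highest were Magohb, of the exon junction complex, with 7.71, 8.45, 11.9 and 13.2 (0.59, 0.24 to 0.93), and the ciliary gene Evc2 with 9.25, 8.04, 12.1 and 12.6 (0.58). Both were higher in both BCAA-free libraries. Zbtb14, a zinc finger gene, had 10.3, 9.21, 10.5 and 14.1 (0.57), with BCAA-free TAC alone above the others. Med6, a Mediator subunit gene, had 8.65, 7.95, 9.33 and 12.1 (0.55), and Aars2, the mitochondrial alanyl-tRNA synthetase gene, 13.2, 7.55, 13.6 and 11.5 (0.55). These last 2 had 47.1 to 97.1 estimated tags per library. The medians were 0.08 for fatty acid oxidation, 0.05 for BCAA catabolism and −0.17 for leukocyte genes, which was 0.06 by peak height, with 0 regions past 1.5-fold in any of the 3. Pcca had −0.17 (−0.50 to 0.16), Pccb 0.00 (−0.22 to 0.22) and Bcat2 0.23 (0.07 to 0.39).

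The diet ratios in sham and TAC, which share no library, had a Pearson correlation of 0.23 and a Spearman correlation of 0.22 over 8142 members. Of the 32 members higher in sham, 1 was also higher in TAC (3.13% of the 32 and 6.67% of the 15), where 0.184% of all members were. None of the 10 lower ones was among the 22, which is near the 0.270% of all members that were lower. The 32 had a median of 0.25 in TAC-operated hearts, and the 22 had −0.09 in sham.

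Lists of ribosomal protein, proteasome and spliceosome genes had medians between −0.09 and 0.10. Whether these differ from 0 was not tested, and the counting error of a single member is not that of a list median. Cytosolic ribosomal proteins (42 regions), which build the translation machinery, had medians of 0.06, 0.02, 0.04 and −0.02 for TAC on the control diet, TAC on the BCAA-free diet, diet in sham and diet in TAC, and 0 regions past 1.5-fold in any. In the same order, mitochondrial ribosomal proteins (36 regions) had 0.03, −0.09, 0.08 and 0.01, and the proteasome (31 regions), which degrades proteins, had 0.10, −0.04, 0.03 and −0.05. The spliceosome (32 regions) had 0.07, −0.06, 0.05 and −0.05, with 1 region higher for diet in sham, that of Snrpc, which encodes a protein of the U1 particle. Genes of CpG island binding and Polycomb (32 regions) had 0.04, −0.04, 0.07 and −0.02, and those of mTORC1 and leucine sensing (30 regions) had −0.04, −0.09, −0.01 and −0.08. Neither list had a region past 1.5-fold. Among 7 members of cardiac transcription factors was Klf15, a regulator of cardiac metabolism, with signals of 24.0, 18.4, 22.1 and 19.3 and a ratio of −0.36 for TAC on the control diet. Smooth muscle and pericyte genes (5 regions) had −0.02, −0.03, 0.12 and 0.01.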

How the data were processed

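H3K23 propionyl ChIP-seq of 4 mouse heart libraries was analyzed. Per the submitters' processing notes, BWA, MACS2 and the mm10 build were used; no version is stated. The authors deposited 1 table of merged peak regions with, per the file headers, for every library a peak call, a peak height and an average signal of fragment density. How libraries were scaled is not given. Groups came from the treatment labels.

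Ratios were log2((A + 1)/(B + 1)) of the average signal, without a filter, which understates ratios of low regions. Past 1.5-fold counted as higher or lower. Tags were estimated as signal times length divided by 224, which matched the authors' deposited tag numbers to 1.82e-12. The 95% intervals come from these tags and hold counting error alone. The median member had 285 to 296 tags per library and a counting error of 0.119 to 0.120 on the log2 scale. The log2 ratio columns of the table were not used. A list gene was taken at its nearest region.

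Named genes were the 5 highest and 5 lowest of each comparison among members above the member median of mean signal (predicted genes and small RNAs left out), the 5 of highest and lowest signal, and a fixed set of metabolic and control genes. Examples from lists were chosen after their values were seen. Members, lists and rules were chosen with earlier results of these data known, and 2 of 27 lists after values were seen. Sequences are from RefSeq GRCm38.p6, and 76.5% of 24213 gene and region pairs lay within 10 bases of its starts. Steps were tested on simulated data. Python 3.11.15, pandas 2.3.3, scipy 1.17.1 and statsmodels 0.14.6 were used.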

Additional observations from a re-analysis of the deposited data

Results flagged for a closer look

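Some results went one way with TAC on the control diet and the other way on the BCAA-free diet; none of these differences was tested. The mitosis list had medians of 0.32 and −0.01 and the DNA replication list 0.21 and −0.02, and after scaling of the libraries to 1 median the second values were 0.04 and 0.03. The calcium handling list had −0.19 and 0.06, with −0.06 in place of the second by peak height. The cardiac transcription factor list (7 regions) had 0.025 and −0.18, with −0.13 in place of the first by peak height. The spliceosome list had 0.072 and −0.06, with −0.01 in place of the first by peak height and 0.02 in place of the second with the trend removed. The proteasome list had 0.10 and −0.04, which was 0.02 after scaling. Dynlt1f had 0.42 and −0.28 and Tbxa2r −0.34 and 0.19. Genes were listed here only if both counting intervals left out 0, so that is no separate support. The intervals of the second values came as near to 0 as −0.006 and 0.001. Scaling raised the median of all regions in that comparison by 0.05.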

How the results depend on the processing

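Counts of members past 1.5-fold are given as higher and lower. A pseudocount of 0.1 gave 150 and 85 for TAC on the control diet, 43 and 22 on the BCAA-free diet, 75 and 25 for diet in sham, and 33 and 38 for diet in TAC. Peak height gave 493 and 197, 246 and 182, 369 and 123, and 206 and 180. Scaling to the same median gave 41 and 4 for TAC on the BCAA-free diet, 18 and 17 for diet in sham, and 24 higher for diet in TAC; removal of the trend with signal gave 41 and 4, 21 and 23, and 25. The cause of these differences was not tested. Restricted sets hold fewer members by construction. With a peak call in all 4 libraries (7243 members), 48 were higher for TAC on the control diet, followed by 9 and 4, 14 and 2, and 2 and 2. With 1 gene listed (3545), these were 51 and 31 for TAC on the control diet, 16 higher on the BCAA-free diet and 13 lower for diet in TAC. Under 10000 bases (5442), 22 were lower for TAC on the control diet. With a mean signal over that of the median region (6606), 58 were higher for TAC on the control diet, followed by 13 and 5, 16 and 3, and 5 and 6.

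The other 19 counts stayed within 1.5 times. Of 432 list medians, 413 moved by less than the median counting error of a single member, and the other 19 moved with peak height. Of the 432, 64 took the other sign, 62 of them with a main median within 0.1 of 0. Of 24 named ratios past 1.5-fold, 24 stayed past it with a pseudocount of 0.1, 23 with the trend removed, 21 with scaling and 16 by peak height, with no change of sign. No paired test of a comparison was made because each group had 1 library. A fit over both diets or both surgeries was not run. Depth limits short members: between 50 and 100 estimated tags the counting error of a ratio was 0.229 to 0.234.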
